A study of Mus musculus with 23 samples.

Results

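Interferon-stimulated genes are the genes that cells switch on when interferon reaches them. Here 40 of them, listed by symbol, were followed in fibroblasts of mouse embryos with different p53 alleles, all of which expressed oncogenic H-RasV12. The list was set by symbol, with no limit on a measured value, though earlier results of these data were known when it was chosen. Of the 40 members, 38 had a probe set that carries their symbol and no other, among 18193 such genes on the array, and where a gene had several, the one with the highest mean was used. Isg15, whose probe set is shared with another symbol, and Ifi44 were not analysed here. Mx1 stayed below the filter on low values in all 23 arrays, at log2 3.92 to 4.57, so 37 members were tested among 15266 genes. The members fall into 7 roles, which are transcription factors, nucleic acid sensors, antiviral effectors, the Isg15 system with ubiquitin ligases and PARPs, interferon-inducible GTPases, antigen processing, and others.

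Type I interferons bind a receptor whose kinases phosphorylate STAT proteins, and Stat2 then forms, with another STAT protein and Irf9, a complex that binds the interferon-stimulated response element (ISRE) in promoters. Interferon gamma, the type II interferon, acts through STAT dimers at a different element (GAS). Irf1 and Irf7 are themselves induced and widen the response. Fibroblasts make interferon beta when sensors such as Ifih1 find foreign nucleic acid, and they respond to it. p53 is the tumour-suppressor transcription factor, and TAP1 has been described as one of its targets in human cells.

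The 23 arrays fall into 5 groups by p53, and all fibroblasts received retroviral H-RasV12. The QM group (n = 3, LSL-QM+Cre) had knock-in p53 with both transactivation domains changed, the 25,26 group (n = 5, LSL-25,26+Cre) with the first domain changed, and the 53,54 group (n = 3, LSL-53,54+Cre) with the second domain changed. The Null group (n = 6) joined 3 LSL-WT+Emp arrays, of cells with a wild-type knock-in behind a stop cassette that received Empty adenovirus, and 3 Null+Cre arrays, of p53-null cells that received Cre adenovirus. The WT group (n = 6) joined 3 LSL-WT+Cre arrays, of the stop-cassette cells after Cre adenovirus, and 3 WT+Cre arrays, of cells with wild-type p53 that received the same virus. All cells but those of LSL-WT+Emp thus received Cre. The series' design states that H-RasV12 brings on premature senescence in fibroblasts with wild-type p53 and not in those without it, so a p53 group and its growth state cannot be told apart. The background strain was 129/Sv in 14 arrays and a 129/Sv and C57BL6 mix in 9, which are called 129 and mixed below. The series' design calls the samples biological but the labels do not say whether they were separate embryos or cultures, so p-values measure the spread between these samples. The label of WT+Cre replicate 3 names the stop-cassette allele, and that of Null+Cre replicate 4 adds a knock-in.

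Median intensities of the arrays ran from 59.7 to 64.0. The number of arrays per group, 3 to 6, limits the precision. The p53 and H-Ras transcripts are not analysed here, so the labels were checked with 3 p53 targets. Mdm2, which marks p53 for degradation, lay at log2 10.17 to 10.38 in QM, 11.36 to 11.88 in 25,26, 12.81 to 13.07 in 53,54, 10.27 to 10.44 in Null and 12.60 to 13.65 in WT arrays, and Cdkn1a and Ccng1 also lay lower in all QM and Null arrays than in all 53,54 and WT arrays. All 13 fibroblast markers with a probe set were above the filter in every array. Of 14 macrophage and leukocyte markers, 7 to 11 were above it, of 7 endothelial markers 3 to 5, of 6 epithelial markers 5 or 6, and of 6 T and NK cell markers 2 or 3. The summed level of the epithelial markers reached log2 12.87, in a WT array.

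Some arrays stood apart in the members themselves. Each member was centred on its mean over the 23 arrays and the 37 values of an array were averaged. Null+Cre replicate 2 lay at 1.54 (log2) and Null+Cre replicate 3 at 0.78, against -0.05 for Null+Cre replicate 4. Between -0.69 and 0.51 lay every other array. Null+Cre replicate 2 held the highest level of 28 of the 37 members. The lowest level of 13 members was in LSL-WT+Cre replicate 2 and that of 7 in LSL-WT+Emp replicate 2. The summed level of the fibroblast markers was also highest in Null+Cre replicate 2, at log2 17.49 against 16.58 to 17.07 in the other arrays, and its part in the members' levels was not tested. In the p53 comparisons that use the Null+Cre arrays, the calls and the median of the 37 members are therefore given with and without that array. Other counts are given with it only, such as those by role, of groups without overlap, of the pathway lists and of the cell type markers.

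**Figure D1:**
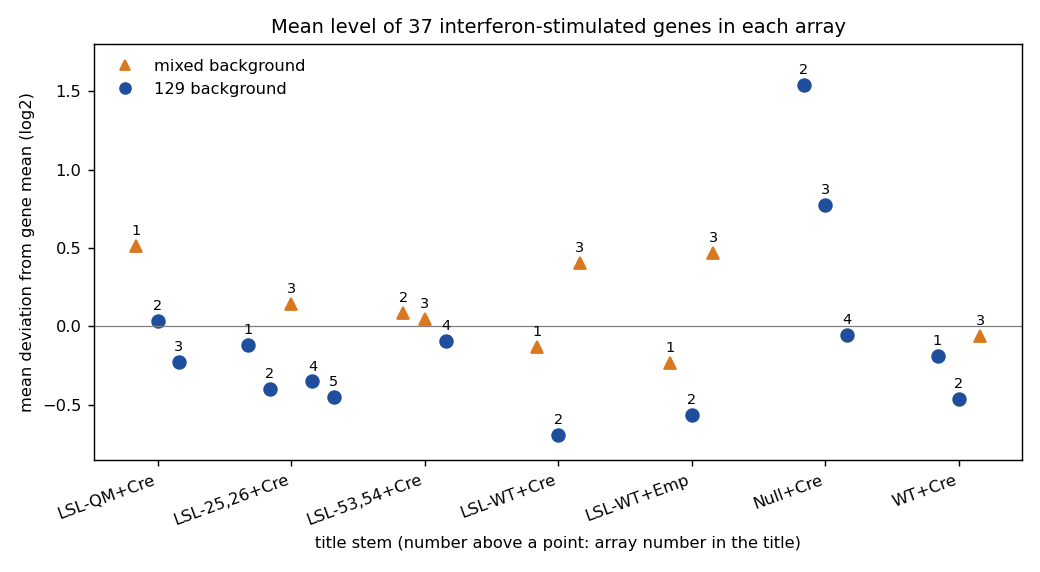
Mean over 37 members of the log2 level minus the member's mean over 23 arrays, for each array by title stem (x axis), with the title number above each point, mixed background as triangles and 129 background as circles. Null+Cre 2 (1.54) and Null+Cre 3 (0.78) lie above all others, and title number 3 lies above number 2 in both LSL-WT stems.

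**Figure D2:**
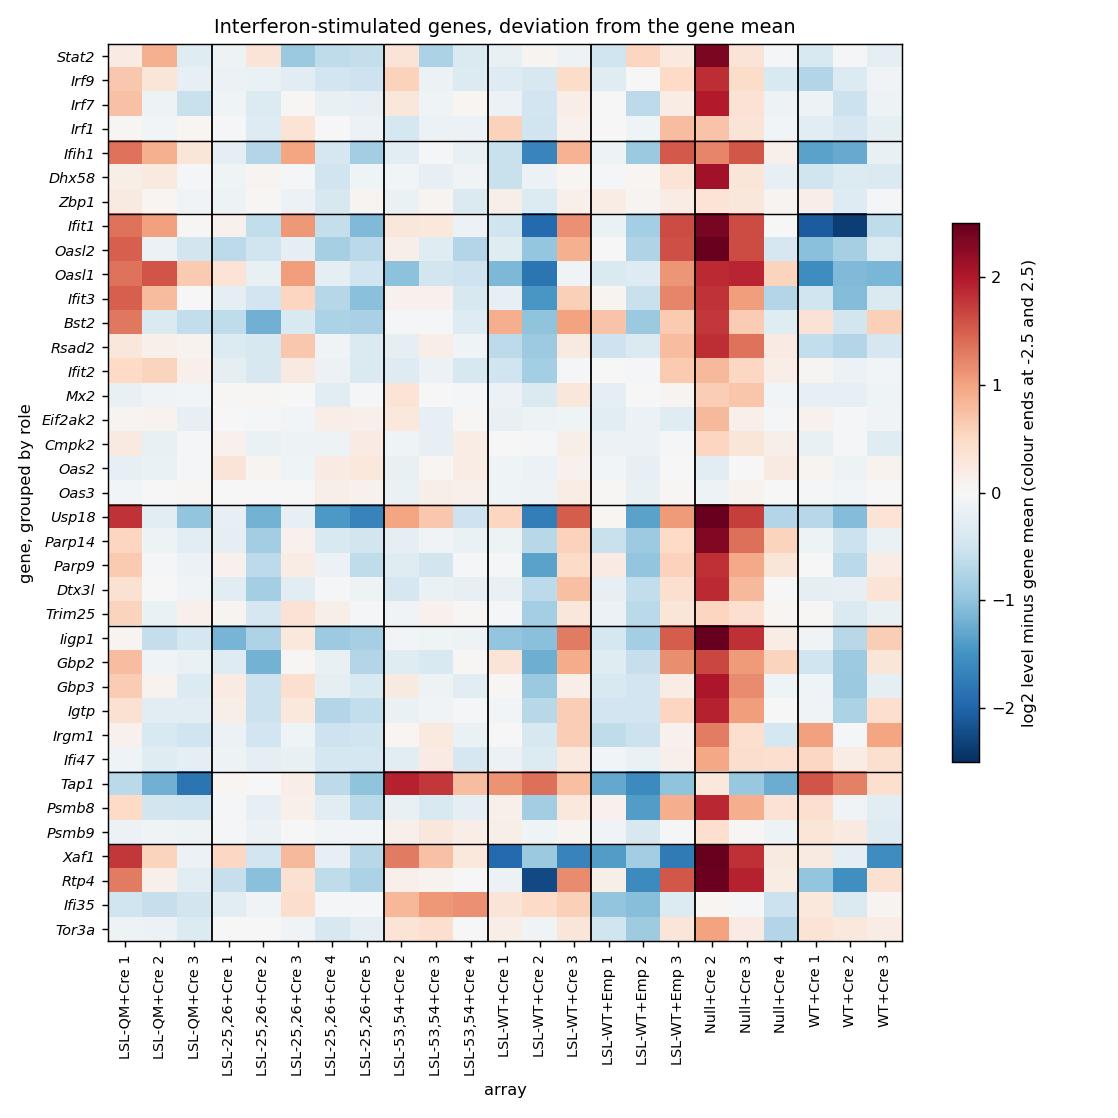
Log2 level minus the gene mean for 37 members (rows, grouped by role) in 23 arrays (columns, grouped by title stem), with the colour scale ending at -2.5 and 2.5. Most rows are red in Null+Cre 2 and 3 and blue in number 2 of both LSL-WT stems, while Tap1 is red in all 53,54 and WT arrays and blue in all QM arrays.

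The promoters of the members that varied most are shown because the ISRE is where the interferon complex binds. RefSeq promoter entries (build GRCm38.p6, 250 bases before to 50 after the start) matched 29 of the 40 members. The 4 promoters printed here belong to the first members by SD over the arrays with an entry, all on the plus strand and read 5′ to 3′. Capitals mark matches to an ISRE core, a GAS element or a p53 half-site.
Xaf1, chr11:72301379-72301678: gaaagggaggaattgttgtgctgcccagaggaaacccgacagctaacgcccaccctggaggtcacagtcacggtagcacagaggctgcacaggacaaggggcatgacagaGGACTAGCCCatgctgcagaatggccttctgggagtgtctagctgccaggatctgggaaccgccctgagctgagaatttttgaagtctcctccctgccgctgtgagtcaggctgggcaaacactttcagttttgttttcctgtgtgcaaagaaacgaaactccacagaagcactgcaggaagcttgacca
Ifit1, chr19:34640639-34640938: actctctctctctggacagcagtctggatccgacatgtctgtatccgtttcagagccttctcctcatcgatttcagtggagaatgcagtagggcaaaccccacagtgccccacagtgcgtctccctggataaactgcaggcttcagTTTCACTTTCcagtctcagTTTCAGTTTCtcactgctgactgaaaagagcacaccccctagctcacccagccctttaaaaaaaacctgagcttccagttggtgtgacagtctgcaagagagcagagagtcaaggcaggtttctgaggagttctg
Tap1, chr17:34187306-34187605: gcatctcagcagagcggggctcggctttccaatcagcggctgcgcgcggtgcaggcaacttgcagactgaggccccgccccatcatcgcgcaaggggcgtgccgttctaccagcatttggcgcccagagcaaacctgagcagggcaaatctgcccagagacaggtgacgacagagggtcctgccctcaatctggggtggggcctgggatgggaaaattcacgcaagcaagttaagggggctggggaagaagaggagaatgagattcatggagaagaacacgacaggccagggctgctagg
Oasl2, chr5:114896684-114896983: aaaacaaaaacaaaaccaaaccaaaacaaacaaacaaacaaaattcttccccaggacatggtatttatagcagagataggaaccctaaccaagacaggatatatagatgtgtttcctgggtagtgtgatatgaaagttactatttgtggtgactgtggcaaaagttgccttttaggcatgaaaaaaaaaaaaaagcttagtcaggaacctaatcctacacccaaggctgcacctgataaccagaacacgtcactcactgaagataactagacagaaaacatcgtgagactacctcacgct
Ifit1 holds the ISRE core, GAAA followed by any 2 bases and GAAA again, at positions -104 to -95 and -85 to -76 from its start, on the opposite strand, so that the capitals show its complement. Xaf1 holds a p53 half-site at -140 to -131. In Tap1 and Oasl2 none of the 3 patterns is found in this window. The ISRE core, searched on both strands, is in 13 of 29 members with an entry (44.8%), against 3.99% of all 27025 genes with one. The GAS pattern TTCNNNGAA is in 7 of 29 (24.1%), against 9.55% of genes, and the p53 half-site in 4 of 29 (13.8%), against 9.55% of genes. A match is a description of these letters and not a measured binding site.

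Without p53 most members did not pass the test, and those that did went both ways. In Null against WT arrays, limma's moderated test with Benjamini-Hochberg adjustment over 15266 genes called 6 members higher and 2 lower at an adjusted p of 0.05, so 8 of 37, while 22.7% of all genes were called, 11.8% higher and 10.9% lower. Oasl1, Ifit2, Rsad2, Ifit1, Dhx58 and Ifih1 rose, and Tap1 and Ifi35 fell. The median difference of the 37 members was 0.53 (log2), against -0.00 over all genes, and 30 of 37 differences were positive. Without Null+Cre replicate 2 the median was 0.26 and 4 members were higher and 3 lower. Oasl1 (1.72), Ifit2 (0.51), Rsad2 (0.81), Dhx58 (0.41), Tap1 (-2.30) and Ifi35 (-0.82) were still called, with Ifit1 (adjusted p = 0.065) and Ifih1 (adjusted p = 0.0961) no longer past the threshold and Tor3a, an AAA ATPase of the endoplasmic reticulum, now lower by limma. With Xist, the RNA of the inactive X chromosome, as a covariate 4 calls were left, Tap1, Oasl1, Ifi35 and Ifit2. Xist had a median of log2 6.65 in Null and 11.54 in WT arrays, so sex and p53 cannot be fully told apart in this comparison.

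Each mutant was set against the WT arrays. In QM against WT arrays 2 members rose (Oasl1 and Ifit2) and 2 fell (Tap1 and Ifi35), 4 of 37 against 13.9% of all genes (8.16% higher and 5.76% lower), with a median of 0.22. That median was 0.03 without QM replicate 1 and 0.07 without LSL-WT+Cre replicate 2. Ifit2 and Ifi35 each lost the call in 5 of the 19 alternatives, among them without QM replicate 1 and without QM replicate 2, with limma's adjusted p from 0.0638 to 0.152 for Ifit2 and from 0.0557 to 0.104 for Ifi35. In 25,26 against WT arrays Tap1 fell and no other member was called, against 7.7% of genes (3.36% lower), with a median of 0.00. Equal title numbers paired these arrays, and with the number as a block Oasl1 was also higher (1.43, limma's adjusted p = 0.0349). In 53,54 against WT arrays limma called 0 of 37 members and 0.367% of genes, and the median was 0.09. By limma's unadjusted p, 2 members were under 0.05, with no share of all genes at that threshold given here.

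Each mutant was also set against the Null arrays. In QM against Null arrays limma called 0 members and 0.0131% of genes. In 25,26 against Null arrays it called 0 members and 4.3% of genes. At limma's unadjusted p under 0.05 stood 1 member in QM and 16 in 25,26. The share of all genes at that looser threshold is not given here. The median of the 37 members was -0.27 in QM and -0.57 in 25,26, and without Null+Cre replicate 2 it was -0.01 and -0.38, with 0 calls in both. In 53,54 against Null arrays Ifi35 and Tap1 rose and Oasl1 and Ifit2 fell, 4 of 37 against 19.6% of genes (9.22% higher and 10.3% lower). Without Null+Cre replicate 2 only the 2 rises were called and the members' median was -0.27, against -0.52 with it. Oasl1 and Ifit2 each lost the call in 7 of the 19 alternatives. Limma's adjusted p there was 0.0523 to 0.135 for Oasl1 and 0.0507 to 0.106 for Ifit2. Whether the mutants differ from each other in these effects was not tested, and all 3 comparisons share the Null arrays.

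The transcription factors of the list were not called in any of these comparisons. Stat2, a subunit of the interferon complex, had log2 levels of 7.10, 7.78 and 6.60 in QM arrays, 6.77, 7.23, 5.97, 6.27 and 6.31 in 25,26 arrays and 7.21, 6.11 and 6.54 in 53,54 arrays. In the Null arrays it ran from 6.40 to 9.26 (median 7.19), against 6.52 to 6.97 (median 6.75) in the WT arrays. The value of 9.26 was that of Null+Cre replicate 2, and the next Null array was at 7.43. Null minus WT was 0.63 ± 0.34 (SE, limma's adjusted p = 0.211).

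Irf9, the DNA-binding subunit of that complex, had levels of 8.37, 8.0 and 7.49 in QM arrays, 7.54, 7.52, 7.43, 7.22 and 7.17 in 25,26 arrays and 8.27, 7.54 and 7.34 in 53,54 arrays. It ran from 7.31 to 9.54 (median 7.92) in Null arrays, against 6.96 to 8.15 (median 7.35) in WT arrays. The groups overlapped, with a difference of 0.59 ± 0.29 (SE, adjusted p = 0.159). Irf7, which amplifies type I interferon, had 7.10, 6.24 and 5.81 in QM arrays, 6.24, 6.01, 6.39, 6.17 and 6.16 in 25,26 arrays and 6.64, 6.26 and 6.41 in 53,54 arrays. It ran from 5.70 to 8.34 (median 6.46) in Null arrays and from 5.81 to 6.53 (median 6.22) in WT arrays, again with the highest value in Null+Cre replicate 2. Irf1, which interferon gamma induces and which has wider roles in stress, had the smallest SD of the 4 over the 23 arrays, though not within the WT group. It had 9.21, 9.12 and 9.24 in QM arrays, 9.16, 8.86, 9.52, 9.19 and 9.04 in 25,26 arrays, 8.74, 9.03 and 9.04 in 53,54 arrays, 9.07 to 9.96 (median 9.35) in Null arrays and 8.68 to 9.77 (median 8.92) in WT arrays. Its Null minus WT difference was 0.40 ± 0.18 (SE, limma's adjusted p = 0.123).

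Among the nucleic acid sensors Ifih1 (MDA5) and Dhx58 (LGP2), which both bind viral double-stranded RNA, rose in Null against WT arrays. Ifih1 averaged 8.76 ± 1.02 in Null arrays and 7.51 ± 0.94 in WT arrays (SD, n = 6 each), a difference of 1.25 ± 0.44 (SE, limma's adjusted p = 0.0462). Dhx58 averaged 5.87 ± 0.84 in Null arrays and 5.13 ± 0.23 in WT arrays (SD, n = 6 each), a difference of 0.74 ± 0.26 (SE, limma's adjusted p = 0.0405). Dhx58 lay at 7.54 in Null+Cre replicate 2, against at most 5.80 in the other Null arrays. In the array set without that replicate its difference was 0.41 and still past the threshold (limma's adjusted p = 0.0186). Zbp1, a sensor of Z-form nucleic acid, differed by 0.24 and was not called.

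Of the 12 antiviral effectors tested, 4 rose in Null against WT arrays and none fell, where 11.8% of all genes rose and 10.9% fell. Of these 4, 2 also rose in QM against WT arrays, where 8.16% of all genes were called higher. Ifit1, 1 of the 4, was not called without Null+Cre replicate 2. Oasl1, an oligoadenylate synthetase-like protein that in mice limits Irf7 translation, had levels of 9.37, 9.59 and 8.67 in QM arrays, 8.36, 7.84, 9.07, 7.80 and 7.51 in 25,26 arrays and 6.99, 7.56 and 7.51 in 53,54 arrays. It ran from 7.67 to 9.93 (median 8.85) in Null arrays, against 6.20 to 7.93 (median 6.88) in WT arrays. All QM arrays lay above all WT arrays. All 53,54 arrays lay below all Null arrays, and in Null and WT only the ends of the ranges met. Null minus WT was 1.93 ± 0.38 (SE, limma's adjusted p = 0.000665), QM minus WT was 2.33 ± 0.47 (adjusted p = 0.0016), and 53,54 minus Null was -1.46 ± 0.47 (adjusted p = 0.0292). In 25,26 minus WT the difference of 1.23 ± 0.40 missed the threshold (adjusted p = 0.062).

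Ifit2, whose protein binds viral RNA and slows translation, differed on a smaller scale. It averaged 9.26 ± 0.23 in QM (SD, n = 3), 8.68 ± 0.25 in 25,26 (n = 5), 8.58 ± 0.13 in 53,54 (n = 3), 9.21 ± 0.36 in Null (n = 6) and 8.61 ± 0.35 in WT arrays (n = 6). QM minus WT was 0.65 ± 0.20 (SE, limma's adjusted p = 0.0354) with no overlap of the groups, Null minus WT was 0.61 ± 0.17 (adjusted p = 0.0101), and 53,54 minus Null was -0.64 ± 0.20 (adjusted p = 0.0301). By mean, QM and Null were the 2 highest groups, as they were for Oasl1. Rsad2 (viperin), which makes a chain-terminating nucleotide, rose by 1.07 ± 0.31 in Null against WT arrays (limma's adjusted p = 0.0158) and was not called in a mutant.

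Ifit1, which binds viral RNA caps, had a wide range within groups. Its levels were 9.26, 8.92 and 7.92 in QM arrays, 8.01, 7.28, 8.99, 7.30 and 6.80 in 25,26 arrays and 8.19, 8.17 and 7.76 in 53,54 arrays. In Null arrays it ran from 7.05 to 10.28 (median 8.72), against 5.56 to 9.05 (median 6.62) in WT arrays. The Null and WT ranges overlapped, and Null minus WT was 1.83 ± 0.58 (SE, limma's adjusted p = 0.0243). Ifit1 lost this call in 8 of the 22 alternatives, with limma's adjusted p from 0.0581 to 0.0868. Oasl2, a mouse oligoadenylate synthetase-like protein with enzyme activity, had 6.67, 5.02 and 4.72 in QM arrays, 4.52, 4.68, 4.96, 4.34 and 4.51 in 25,26 arrays and 5.32, 4.87 and 4.45 in 53,54 arrays. It ran from 4.42 to 8.61 (median 5.99) in Null and 4.13 to 6.06 (median 4.59) in WT arrays, and 1.36 ± 0.54 missed the threshold (limma's adjusted p = 0.0757). The other effectors tested, Ifit3, Bst2, Mx2, Eif2ak2, Cmpk2, Oas2 and Oas3, were not called in Null against WT arrays, with differences from -0.03 (Oas2) to 0.97 (Ifit3).

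**Figure D3:**
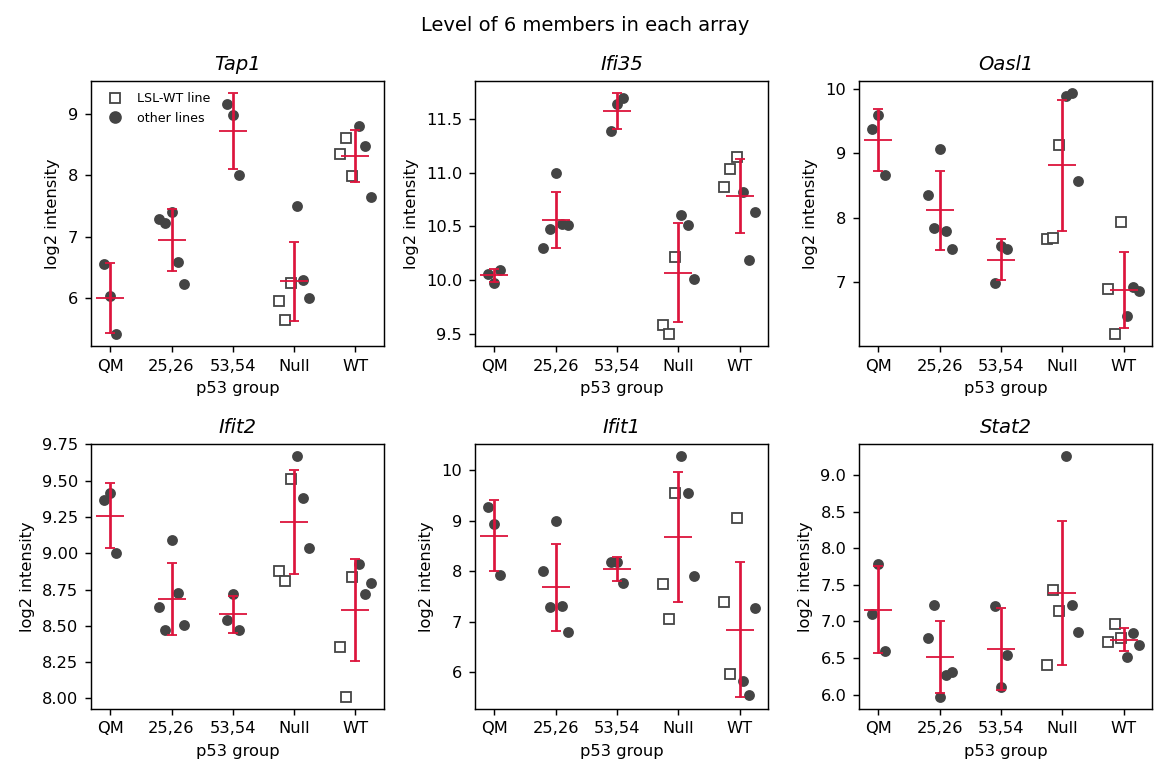
Log2 intensity of Tap1, Ifi35, Oasl1, Ifit2, Ifit1 and Stat2 in each array by p53 group, with open squares for the LSL-WT line, filled circles for the other lines, and red bars for the mean ± SD (n = 3, 5, 3, 6 and 6). By mean, Tap1 and Ifi35 are lower in QM and Null than in 53,54 and WT, Oasl1 and Ifit2 are higher, and Stat2 is set apart by 1 Null array at 9.26.

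None of the 5 members of the Isg15 system, ubiquitin ligases and PARPs was called in Null against WT arrays, and all 5 differences were positive. Usp18, the protease that removes Isg15 and dampens the interferon receptor, had 8.68, 6.60 and 5.89 in QM arrays, 6.68, 5.70, 6.68, 5.44 and 5.21 in 25,26 arrays and 7.86, 7.55 and 6.36 in 53,54 arrays. It ran from 5.55 to 10.24 (median 7.43) in Null arrays and from 5.15 to 8.39 (median 6.71) in WT arrays. The groups overlapped, and Null minus WT was 0.88 ± 0.68 (SE, limma's adjusted p = 0.428). Parp9, Parp14, Dtx3l and Trim25 had differences of 0.27 to 0.73.

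The 6 interferon-inducible GTPases, which attack the vacuoles of intracellular pathogens, were not called in Null against WT arrays, with differences from -0.33 (Irgm1) to 1.08 (Iigp1). Iigp1 had 5.94, 5.26 and 5.42 in QM arrays, 4.70, 5.09, 6.12, 4.95 and 5.04 in 25,26 arrays and 5.80, 5.75 and 5.74 in 53,54 arrays. It ran from 5.01 to 9.21 (median 6.71) in Null arrays, against 4.81 to 7.16 (median 5.47) in WT arrays. Its 2 highest values in the study were those of Null+Cre replicates 2 and 3. Ifi47 had the smallest p in QM minus Null (-0.51 ± 0.21 SE, limma's adjusted p = 1) and in 25,26 minus Null (-0.57 ± 0.18 SE, adjusted p = 0.0788), and Iigp1 was next in QM at -1.25 and also among the 3 smallest in 25,26 at -1.61. Mx2, the remaining one in QM, differed by -0.30, and Ifit2, next in 25,26, by -0.53.

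Tap1, a subunit of the transporter that carries peptides to class I molecules in the endoplasmic reticulum, fell in Null, QM and 25,26 against WT arrays. Its levels were 6.55, 6.03 and 5.41 in QM arrays, 7.28, 7.22, 7.40, 6.59 and 6.23 in 25,26 arrays and 9.16, 9.0 and 8.01 in 53,54 arrays. In Null arrays it ran from 5.63 to 7.50 (median 6.11), against 7.64 to 8.80 (median 8.42) in WT arrays. No QM, 25,26 or Null array reached the lowest WT array. QM minus WT was -2.32 ± 0.36 (SE, limma's adjusted p = 0.000154), 25,26 minus WT was -1.37 ± 0.31 (adjusted p = 0.00843) and Null minus WT was -2.05 ± 0.30 (adjusted p = 2.83e-05), which is 4.14-fold lower in Null.

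By mean the order of Tap1 was 53,54 (8.72), WT (8.32), 25,26 (6.94), Null (6.27) and QM (6.00). The neighbours 53,54 and WT differed by 0.41 ± 0.36 (SE, limma's adjusted p = 0.905), 25,26 and Null by 0.68 ± 0.31 (adjusted p = 0.274), and QM and Null by -0.27 ± 0.36 (adjusted p = 1), none past the threshold. The step between 25,26 and WT passed it. 53,54 minus Null was 2.46 ± 0.36 (SE, limma's adjusted p = 3.66e-05). A second Tap1 probe set near the filter differed by -0.30 in Null minus WT, and 2 others were under the filter in every array. With the mean of all its probe sets Tap1 differed by -0.54 in Null minus WT and -0.63 in QM minus WT, both still called, and by -0.31 in 25,26 minus WT, which was not (limma's adjusted p = 0.0613). Psmb8 and Psmb9, inducible subunits of the immunoproteasome that cuts the peptides, were not called, at 0.53 and -0.09 in Null minus WT.

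Of the 4 other members tested, Ifi35, a leucine-zipper protein that modulates antiviral signalling, fell in QM and Null against WT arrays and rose in 53,54 against Null arrays. Ifi35 averaged 10.04 ± 0.06 in QM (SD, n = 3), 10.56 ± 0.26 in 25,26 (n = 5), 11.58 ± 0.17 in 53,54 (n = 3), 10.07 ± 0.46 in Null (n = 6) and 10.78 ± 0.34 in WT arrays (n = 6). All 53,54 arrays lay above all WT arrays, yet limma did not call 53,54 minus WT (0.80 ± 0.22 SE, adjusted p = 0.186). The differences that passed were -0.74 ± 0.22 in QM minus WT (limma's adjusted p = 0.0292), -0.71 ± 0.18 in Null minus WT (adjusted p = 0.00615) and 1.51 ± 0.22 in 53,54 minus Null (adjusted p = 3.66e-05). Its 2 other probe sets gave -0.62 and -0.57 in Null minus WT.

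Xaf1, a pro-apoptotic interferon-induced protein that binds XIAP, varied more than any other member tested, with an SD of 1.35 over the arrays. It had 8.73, 7.51 and 6.81 in QM arrays, 7.49, 6.49, 7.78, 6.77 and 6.28 in 25,26 arrays and 8.26, 7.70 and 7.22 in 53,54 arrays. It ran from 5.19 to 10.62 (median 6.64) in Null arrays, against 5.02 to 7.20 (median 5.72) in WT arrays. All 53,54 arrays lay above all WT arrays, and the difference of 1.78 ± 0.84 (SE, limma's adjusted p = 0.68) was not called. The value rests on 1 of 2 probe sets that disagree, since the other gave -0.56 in 53,54 minus WT, against 1.78, and 0.06 in Null minus WT, against 1.30.

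Rtp4, a chaperone of G-protein-coupled receptors, had 9.50, 8.33 and 7.93 in QM arrays, 7.62, 7.16, 8.58, 7.58 and 7.41 in 25,26 arrays and 8.32, 8.29 and 8.21 in 53,54 arrays. It ran from 6.62 to 10.65 (median 9.08) in Null arrays and from 5.95 to 9.38 (median 7.63) in WT arrays. The groups overlapped, and 1.34 ± 0.59 missed the threshold (limma's adjusted p = 0.112). Tor3a differed by -0.30 and was not called with all arrays.

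The Null and WT groups each join a stop-cassette line and other lines, and these were also compared apart. LSL-WT+Cre against LSL-WT+Emp arrays asks what restoring p53 does in the same line. The virus differs as well, Cre against Empty, so p53 and Cre cannot be told apart in it. Tap1 and Ifi35 rose and no member fell, 2 of 37 against 11.7% of genes (4.8% higher and 6.89% lower), with a median of -0.03. Tap1 had 8.36, 8.61 and 7.99 in LSL-WT+Cre and 5.95, 5.63 and 6.24 in LSL-WT+Emp arrays, a difference of 2.38 ± 0.41 (SE, limma's adjusted p = 0.000693). Ifi35 had 10.87, 11.04 and 11.15 in LSL-WT+Cre and 9.58, 9.50 and 10.22 in LSL-WT+Emp arrays, a difference of 1.25 ± 0.20 (SE, limma's adjusted p = 0.000396). Both sets of arrays were separate for both genes. Ifit2 differed by -0.66 ± 0.22 (SE, limma's adjusted p = 0.0535), and equal title numbers paired these arrays, so that with the number as a block it was called lower (adjusted p = 0.0245).

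In Null+Cre against WT+Cre arrays 11 members rose and Tap1 fell, 12 of 37 against 15.9% of genes (7.19% higher and 8.75% lower), with a median of 1.03. Oasl1 had 9.89, 9.93 and 8.57 in Null+Cre and 6.47, 6.92 and 6.87 in WT+Cre arrays, a difference of 2.71 ± 0.48 (SE, limma's adjusted p = 0.00063). Ifit1 had 10.28, 9.54 and 7.91 in Null+Cre and 5.83, 5.56 and 7.27 in WT+Cre arrays, a difference of 3.03 ± 0.76 (SE, limma's adjusted p = 0.00984). In both genes Null+Cre replicate 4, whose label adds a knock-in, was the lowest of its stem and still above every WT+Cre array. For Ifit1 the nearest was WT+Cre replicate 3 at 7.27, whose label names the stop-cassette allele. Rsad2 rose by 1.73 ± 0.38 (SE, limma's adjusted p = 0.00382), Parp14 by 1.69 ± 0.40 (adjusted p = 0.00591) and Cmpk2, a mitochondrial nucleotide kinase measured near the filter, by 0.50 ± 0.14 (adjusted p = 0.0148), while Tap1 fell by 1.72 (adjusted p = 0.00715). Xaf1, Gbp3, Mx2, Dhx58, Oasl2 and Ifih1 rose too. The other Xaf1 probe set differed by -0.01 here, against 2.42 for the one used. Of the 37 members, 15 lay higher and 1 lower in every Null+Cre array than in every WT+Cre array, against 12.6% and 14.3% of all genes.

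The counts of this comparison moved with single arrays. Without Null+Cre replicate 2, Oasl1, Rsad2 and Parp14 rose and Tap1 fell, and the median was 0.44. Ifit1 then differed by 2.51 (limma's adjusted p = 0.0542). Without Null+Cre replicate 4, 22 members were higher and 1 lower. Xist lay at 5.72 to 6.81 in Null+Cre and 11.47 to 11.86 in WT+Cre arrays, so sex and p53 cannot be told apart here, and all Null+Cre arrays were of the 129 background. With the background strain as a covariate limma called 24 members in this comparison, and with Xist as a covariate it called 3.

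Ifi35 differed by -0.17 ± 0.20 in Null+Cre minus WT+Cre (SE, limma's adjusted p = 0.681), where Tap1 was the single member that fell. The difference between both line comparisons, Null+Cre minus WT+Cre less LSL-WT+Emp minus LSL-WT+Cre, was tested in the same fit. Limma called 0 of 37 members and 0.00655% of genes. At its unadjusted p under 0.05 stood 9 members, with no share of all genes at that threshold given here. The 3 smallest p belonged to Ifi35 (1.08 ± 0.29 SE, limma's adjusted p = 0.231), Parp14 (1.93 ± 0.56 SE, adjusted p = 0.273) and Cmpk2 (0.64 ± 0.19 SE, adjusted p = 0.287). The difference was positive in 36 of 37 members, with a median of 0.92, against -0.04 over all genes. Without Null+Cre replicate 2 limma again called 0 members and the median was 0.46.

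**Figure D4:**
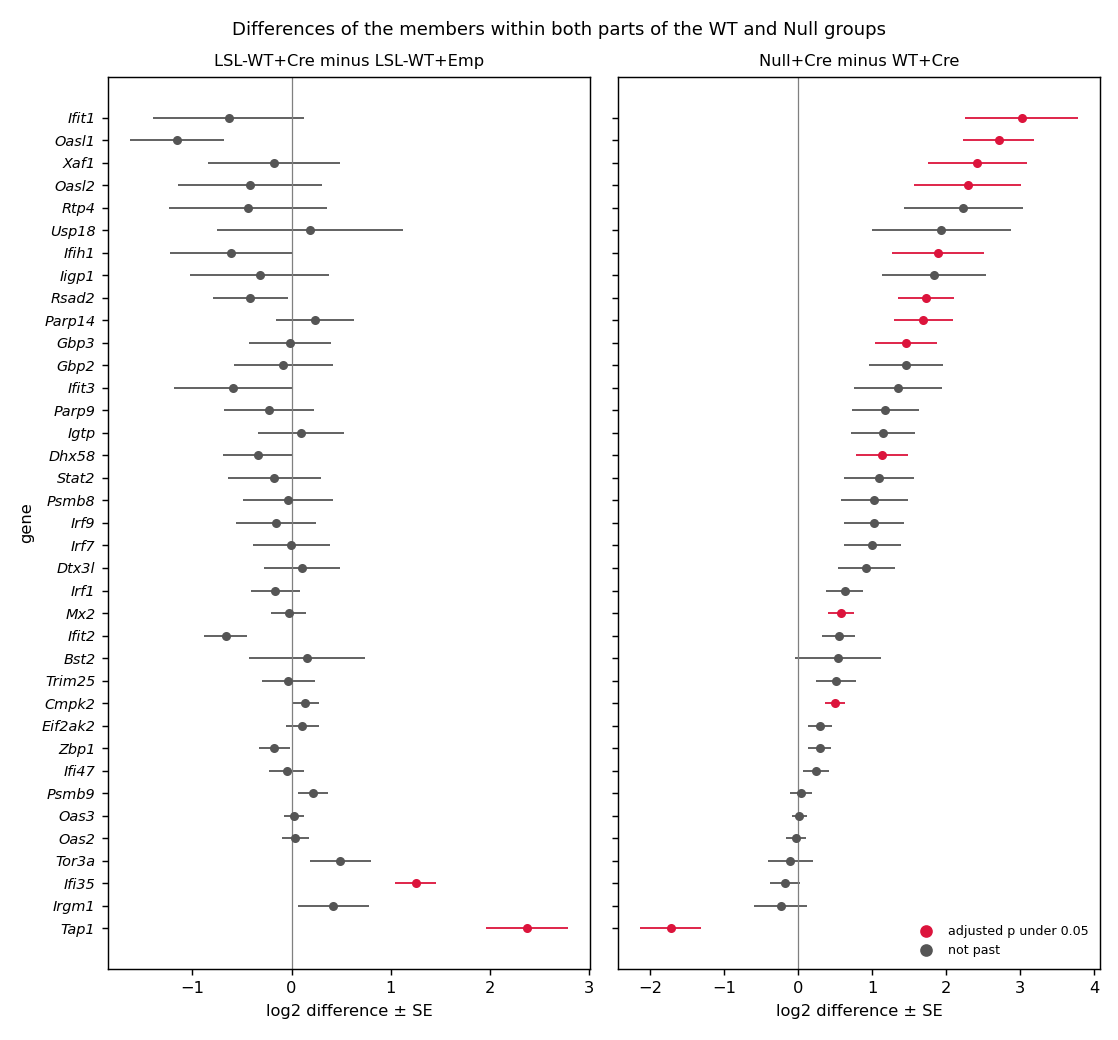
Log2 difference ± SE of 37 members in LSL-WT+Cre minus LSL-WT+Emp arrays (left, n = 3 each) and in Null+Cre minus WT+Cre arrays (right, n = 3 each), ordered by the right panel, with red for an adjusted p under 0.05. Tap1 and Ifi35 are red on the left at 2.38 and 1.25, and 11 members rise and Tap1 falls on the right.

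Both kinds of cells without functional p53 also differed from each other. In LSL-WT+Emp against Null+Cre arrays all 37 differences were negative, with a median of -0.78 (-0.36 without Null+Cre replicate 2). The share of negative differences over all genes is not given here. The stems also differ in virus and in strain, with 2 LSL-WT+Emp arrays mixed and every Null+Cre array 129. Xist lay at 12.62 in LSL-WT+Emp replicate 2, against at most 6.81 in Null+Cre arrays. These differences cannot be told apart from the kind of cells. Limma called Xaf1 alone, as lower, against 0.216% of genes (0.131% lower). Xaf1 had 5.57, 6.10 and 5.19 in LSL-WT+Emp and 10.62, 8.80 and 7.18 in Null+Cre arrays, a difference of -3.24 ± 0.67 (SE, limma's adjusted p = 0.049). Xaf1 lost the call in 10 of the 16 alternatives (limma's adjusted p from 0.0557 to 0.376). Among them was the fit without Null+Cre replicate 2 (-2.37, adjusted p = 0.255). The call rests on a single probe set, and the gene's other one disagreed in the comparisons above. In LSL-WT+Cre against WT+Cre arrays limma called 0 members and 0.983% of genes. By limma's unadjusted p, 2 members were under 0.05, with no share of all genes at that threshold given here. There Ifi47 (-0.45), Ifi35 (0.47) and Ifit2 (-0.41) had the smallest p.

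The title number ran with the members' levels in the LSL-WT line. Number 3 was higher than number 2 in both viruses for 33 of 37 members, by a median of 1.02 in LSL-WT+Cre and 0.89 in LSL-WT+Emp arrays. The share of all genes that did so is not given here. Number 3 was mixed, with Xist at 6.42 in LSL-WT+Cre and 6.32 in LSL-WT+Emp. Number 2 was 129, with Xist at 12.71 and 12.62. Title number, strain and sex thus cannot be told apart in this step. For Rtp4 this step was 3.43 in LSL-WT+Cre and 3.15 in LSL-WT+Emp, more than the Cre minus Empty difference of -0.44. Taken at equal numbers, LSL-WT+Cre minus LSL-WT+Emp was negative in all 3 pairs for 13 members and positive in all 3 for 8, against 33.1% and 28.6% of all genes. Oasl1 differed by -0.77, -1.50 and -1.20 in the 3 pairs and Ifit2 by -0.52, -0.80 and -0.68. Tap1 differed by 2.41, 2.98 and 1.76 and Ifi35 by 1.29, 1.54 and 0.93.

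**Figure D5:**
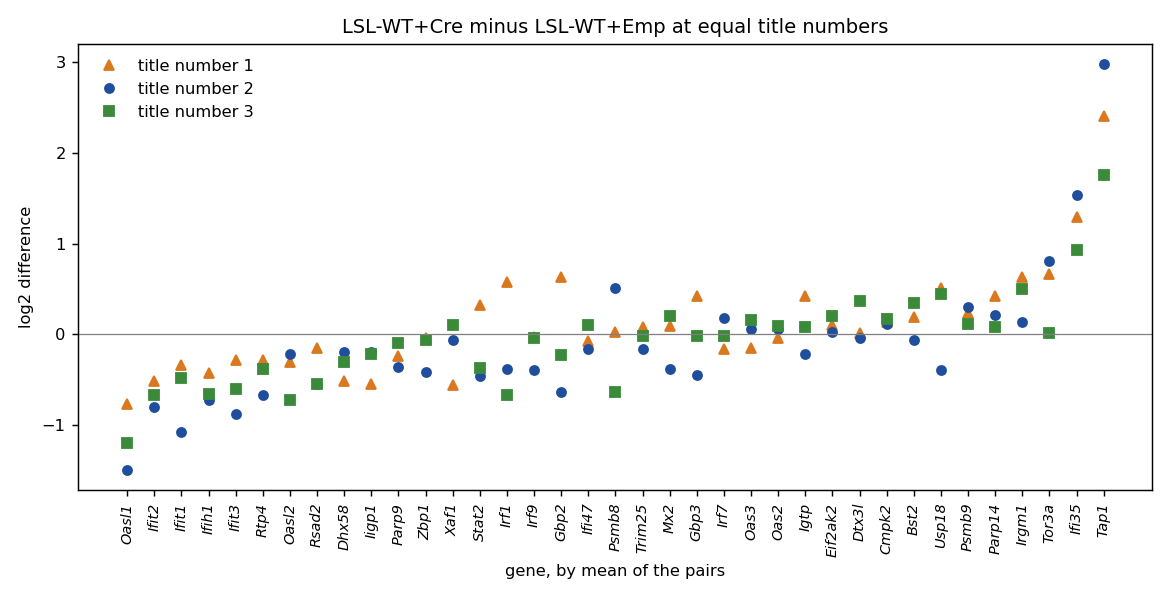
Log2 difference LSL-WT+Cre minus LSL-WT+Emp at title numbers 1, 2 and 3 (triangle, circle, square) for 37 members, ordered by the mean of the pairs. Oasl1 and Ifit2 lie below 0 in all 3 pairs, and Tap1 (1.76 to 2.98) and Ifi35 (0.93 to 1.54) above it.

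Background strain ran with the members inside the title stems. In all 6 stems that hold both strains, every mixed array had a higher mean over the members than every 129 array. For 15 of 37 members the mixed mean was above the 129 mean in all 6 stems, against 3.47% of all genes. These were Irf7, Irf9, Ifih1, Ifit1, Ifit3, Oasl2, Rsad2, Bst2, Usp18, Parp14, Gbp3, Irgm1, Iigp1, Ifi47 and Rtp4. LSL-WT+Cre and LSL-WT+Emp arrays share a line and pair by title number, so the stems are not independent. Members that move together are not separate observations either. With strain as a term beside the 5 p53 groups limma called 0 members (3 without Null+Cre replicate 2) and 3.29% of genes. At limma's unadjusted p under 0.05 stood 7 members, with no share of all genes at that threshold given here. The smallest p belonged to Bst2, or tetherin, which holds budding virus at the cell surface (0.82 ± 0.26 SE, limma's adjusted p = 0.102), Ifih1 (0.85, adjusted p = 0.146) and Ifit3 (0.78, adjusted p = 0.157).

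With the title stems in the model, a fit added after the data were seen, 5 members were higher in mixed than in 129 arrays, against 1.62% of genes called higher and 2.25% in either direction. They were Rtp4 (1.56 ± 0.33 SE, limma's adjusted p = 0.0158), Bst2 (1.11), Ifih1 (1.16), Usp18 (1.74) and Ifit1 (1.40). With the title number also as a block limma called 0 of them. Number 2 is a 129 array in 5 of those 6 stems, so strain and number cannot be fully told apart. Number 2 was the highest array of its stem for Stat2 in 7 of 7 stems, and for no other member, against 8.26% of genes. It was the lowest in at least 6 stems for Irf1, Trim25 and Oas3, against 15.2% of genes.

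The rest of the interferon pathway, from lists of symbols, was set beside the members in Null against WT arrays, where 11.8% of all genes were called higher and 10.9% lower. These lists are described by their counts only. None of the 3 interferon genes tested was called, and Ifnb1, the interferon beta gene, averaged 4.74 ± 0.21 in Null and 4.74 ± 0.17 in WT arrays (SD, n = 6 each), just under the filter level of 4.79. Ifna1 and Ifna2 differed by -0.18 and 0.09. Of 9 receptors, kinases and STATs, Tyk2, a kinase of the type I receptor, fell (-0.43 ± 0.11 SE, limma's adjusted p = 0.00845), and Il10rb (-0.34), Ifngr1 (-0.30) and Ifngr2 (-0.36) came next without a call. Of 11 genes for sensing upstream of interferon, Cgas rose by 0.44 and Ikbke and Mavs fell by 0.74 and 0.37, and Ticam1 was not called (-0.40). Of 7 inhibitors Ptpn2, a phosphatase of JAK and STAT proteins, rose (0.70 ± 0.17 SE, limma's adjusted p = 0.00514), and Pias1 (-0.11), Socs3 (0.32) and Ptpn6 (0.06) were not called. Of 31 further interferon-stimulated genes 7 rose and 2 fell, with Samhd1 (0.87), Nampt (0.85) and Cxcl10 (2.92) higher and Pml (-1.30) lower in Null. Of 12 antigen presentation genes Nlrc5, the activator of class I genes, fell (-0.85 ± 0.21 SE, limma's adjusted p = 0.00556), and Psmb10 (0.34), Erap1 (0.30) and Tapbpl (-0.25) were not called.

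Cell type markers were counted in the same comparison, again beside 11.8% of all genes called higher and 10.9% lower. The counts include Null+Cre replicate 2, which had the highest fibroblast sum, and were not repeated without it. Of 13 fibroblast markers tested 5 rose in Null against WT arrays, and their summed level ran from log2 16.75 to 17.49 in Null and 16.58 to 17.05 in WT arrays. Of 6 epithelial markers 3 fell (Dsp, Krt19 and Krt18), with summed levels of 10.84 to 12.07 in Null and 12.10 to 12.87 in WT arrays. Of 10 macrophage and leukocyte markers Cd68 fell and none rose, with sums of 9.93 to 10.21 in Null and 10.16 to 10.61 in WT arrays. Of 5 endothelial markers Eng fell, and none of 3 T and NK cell markers was called. The part of these markers in the members' differences was not tested, and in bulk RNA fewer cells of a type and less RNA per cell cannot be told apart.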

How the data were processed

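RNA of 23 fibroblast samples was measured on Affymetrix mouse arrays. The authors deposited an RMA intensity per probe set on a linear scale, per the labels and the submitters' processing notes, which give no version or options. RMA includes background correction and normalization between arrays, so a shift common to all genes is not seen. The values were put on the log2 scale here. Of 45101 probe sets, 64 controls were left out, and 34945 of the rest carried 1 gene symbol, 932 several and 9160 none in GEO's platform annotation, which can be old. Each gene kept its probe set with the highest mean. Genes above the 30th percentile (log2 4.79) in at least 3 arrays were tested, 15266 in all. No array pair was identical. Models used limma 3.58.1 in R 4.3.3 (lmFit and eBayes) with means for the 5 p53 groups, or for the 7 title stems in the line comparisons, and Benjamini-Hochberg adjustment over all genes tested at a threshold of 0.05. The model was tested on simulated data with known changes. Shares of all genes called are at the adjusted threshold. Counts of members at an unadjusted p under 0.05 are therefore not to be set against them.

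Members and lists were chosen with earlier results of these data known. Per-array values are given for the 8 tested members with the largest SD and for the transcription factors, each comparison names up to 6 members past the threshold with the smallest p, or the 3 smallest p where none passed, each role its largest difference, and each pathway list its 4 smallest p. Promoters are those of the first 4 members by SD with an entry. Genes named beside these were chosen after their values were seen.

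Equal title numbers were taken to pair arrays where at least 3 same-number pairs existed and every correlation of their deviations was over 0.1. This held for 25,26 against WT (6 of 6 pairs), 53,54 against Null (5 of 5), LSL-WT+Cre against LSL-WT+Emp (3 of 3, from 0.72 to 0.80) and LSL-WT+Cre against WT+Cre (3 of 3). The labels do not say what the number marks.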

Additional observations from a re-analysis of the deposited data

Results flagged for a closer look

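In groups of 5 or 6 arrays, 6 values stood far from the rest of their group by Dixon's criterion, among 111 member and group pairs tested, and chance flags about 1 in 20. In the Null group the array Null+Cre replicate 2 was the highest for Stat2 at log2 9.26, where the nearest Null array had 7.43, for Dhx58 at 7.54, with the nearest at 5.80, and for Tap1 at 7.50, with the nearest at 6.29. In the 25,26 group Iigp1 was highest in replicate 3 at 6.12, with the nearest at 5.09. That array is the group's single mixed-background sample. Mx2 was lowest in 25,26 replicate 4 at 5.77, with the nearest at 6.02, and Dtx3l was lowest in 25,26 replicate 2 at 6.79, with the nearest at 7.38.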

How the results depend on the processing

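No named gene's difference changed sign in the alternatives run for it. The members' median did change sign where it lay near 0. It was -0.03 for LSL-WT+Cre minus LSL-WT+Emp, from -0.24 to 0.17 with 1 array left out, 0.11 for LSL-WT+Cre minus WT+Cre, from -0.14 to 0.29, and 0.00 for 25,26 minus WT, from -0.13 to 0.10. Counts below are members called by limma of 37. Fitting the compared arrays alone gave 4 for Null minus WT (8 in the model of all arrays), 2 for 53,54 minus Null (4), 5 for Null+Cre minus WT+Cre (12) and 0 for LSL-WT+Emp minus Null+Cre (1). The level of Xist as a covariate gave 4 for Null minus WT, 2 for 25,26 minus WT (1) and 3 for Null+Cre minus WT+Cre. Strain as a covariate gave 7 for QM minus WT (4) and 24 for Null+Cre minus WT+Cre. The mean of all probe sets of a gene gave 0 for 25,26 minus WT and 0 for LSL-WT+Emp minus Null+Cre, and no filter or centring each array on its median also gave 0 for that last comparison. The causes were not tested.

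With the title number as a replicate block, limma called 2 members for 25,26 minus WT, 2 for 25,26 minus Null, 26 for Null+Cre minus WT+Cre and 2 for LSL-WT+Emp minus Null+Cre. It called 10 for Null minus WT, 6 for QM minus WT, 3 for LSL-WT+Cre minus LSL-WT+Emp and 4 for 53,54 minus Null. Calls among all genes tested also rose with the block, from 3465 to 5160 for Null minus WT. For QM minus WT they rose from 2125 to 4025, and for 25,26 minus WT from 1176 to 1828. In these comparisons the rise was thus not limited to the members. For the other comparisons the calls among all genes with the block are not given here. The numbers pair arrays by the check only in the 4 comparisons listed under processing.

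Leaving out 1 array at a time, the count ran from 5 to 14 for Null minus WT (14 without LSL-WT+Emp replicate 2), from 2 to 5 for QM minus WT, from 1 to 2 for 25,26 minus WT (2 without LSL-WT+Cre replicate 3), from 0 to 4 for 25,26 minus Null (4 without LSL-WT+Emp replicate 2) and from 2 to 5 for 53,54 minus Null. It ran from 2 to 4 for LSL-WT+Cre minus LSL-WT+Emp, from 4 to 23 for Null+Cre minus WT+Cre (4 without Null+Cre replicate 2, 23 without replicate 4), from 0 to 2 for LSL-WT+Emp minus Null+Cre and from 0 to 3 for mixed minus 129 (3 without Null+Cre replicate 2). It stayed at 0 for 53,54 minus WT, QM minus Null, the difference of both line comparisons and LSL-WT+Cre minus WT+Cre. With the title stems in the model, an alternative chosen after seeing the data, mixed minus 129 gave 5. Members near the filter, such as Cmpk2 and Oasl2, are limited by signal over background.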
